A study of Mus musculus with 57 samples.

Results

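The 31 genes described here build cholesterol, sense it, and move, store, export or break down sterols in the prefrontal cortex of young mice. They were chosen by gene symbol, from a list of sterol synthesis enzymes, SREBP regulators and sterol transport and efflux genes. No measured value served as the rule, but the choice was made with earlier results of these data known. All 31 were found among the 18088 genes of the deposited table, and all 31 passed the filter on low values that left 18026 genes to test. The animals were C57BL/6J mice, either wild type (WT) or with 1 copy of the Shank3 delta C allele (heterozygous, HT), which alters a scaffold protein of excitatory synapses. Their mothers were given vehicle, fluoxetine (a serotonin reuptake inhibitor) or lithium (a mood stabiliser). The pups took up the drug with the milk for 3 weeks, between postnatal days 3 and 24, and tissue was collected on postnatal day 25. Genotype, drug and sex gave 12 groups: 9 of 5 libraries, WT lithium females and HT lithium males with 4 each, and HT vehicle males with 3, which makes 56 libraries, each from a different labelled sample. Litters and mothers are not named in the labels, so p-values treat pups as independent although pups of 1 mother shared its milk, and the dose that reached each pup is not given.

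Values are normalised counts, that is, counts of reads per gene scaled by a library's size factor. Between 22984556 and 35969254 reads per library could be recovered from them. Shank3 had 5170 to 9844 normalised counts in the 29 WT libraries and 5748 to 11196 in the 27 HT libraries. These ranges overlapped, and a gene-level value joins both alleles, so it does not check the genotype labels. All 10 neuron markers were above 0 in every library, as were all 12 astrocyte and all 19 myelin markers. HT vehicle female replicate 1 stood apart in choroid plexus markers (5.73 log2 units above the median library) and HT lithium female replicate 5 in mitochondrially encoded genes (a difference of -1.57). The summed level of 5 olfactory bulb markers ran from 239 to 14785 normalised counts over the libraries, and within WT fluoxetine females alone from 250 to 14785. The tissue is a mixture of cell types, so fewer cells of a type and less RNA per cell cannot be told apart.

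As background, cholesterol is made from acetyl-CoA through mevalonate, squalene and lanosterol. The transcription factors SREBP2 and SREBP1, encoded by Srebf2 and Srebf1, are held in the endoplasmic reticulum by SCAP and the INSIG proteins while sterols are plentiful, and are released to switch on the synthesis genes when sterols run low. LXR receptors, encoded by Nr1h2 and Nr1h3, respond to oxidised sterols and switch on efflux pumps, among them those encoded by Abca1 and Abcg1. The blood-brain barrier keeps out lipoprotein cholesterol, so the brain makes its own, with a peak of demand while myelin forms in the weeks after birth. Neurons export the surplus after CYP46A1 has hydroxylated it.

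The promoters of 3 members are shown because each held the letters CACNCCAC, a core of the sterol regulatory element to which SREBP binds. RefSeq promoter windows on GRCm38.p6, from 250 bases before to 50 after a gene's start, were at hand for 26 of the 31 members. Only bases before both the RefSeq and the GENCODE start of the gene are printed. Capitals mark CACNCCAC or its reverse complement and the CCAAT box or its reverse complement, and the CCAAT box is bound by NF-Y, a partner of SREBP.
Hmgcs1 (chr13:119690101-119690350, plus strand): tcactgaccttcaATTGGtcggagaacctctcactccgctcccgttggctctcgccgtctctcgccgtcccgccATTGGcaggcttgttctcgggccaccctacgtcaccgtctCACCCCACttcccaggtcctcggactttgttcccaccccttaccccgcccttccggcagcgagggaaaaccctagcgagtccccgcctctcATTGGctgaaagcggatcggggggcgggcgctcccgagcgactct
Insig1 (chr5:28071162-28071362, plus strand): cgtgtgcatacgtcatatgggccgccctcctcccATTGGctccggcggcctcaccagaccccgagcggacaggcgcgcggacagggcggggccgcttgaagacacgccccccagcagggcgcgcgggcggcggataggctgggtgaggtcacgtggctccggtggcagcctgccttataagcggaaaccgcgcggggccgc
Acat2 (chr17:12960748-12960975, minus strand): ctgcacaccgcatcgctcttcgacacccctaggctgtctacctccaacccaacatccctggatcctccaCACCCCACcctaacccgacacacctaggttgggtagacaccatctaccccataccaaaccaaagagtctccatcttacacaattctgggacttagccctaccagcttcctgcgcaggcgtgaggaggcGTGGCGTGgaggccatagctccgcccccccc
In Hmgcs1 the match lay 136 bases before the RefSeq start, between 2 pairs of neighbouring CCAAT boxes in reverse orientation, of which the first 3 are printed. Acat2 held 2 matches and no CCAAT box. The Insig1 match began 9 bases before the RefSeq start, within the gene as GENCODE draws it, and is not printed.

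Searched on both strands, CACNCCAC was found in 3 of 26 members (11.5%), against 7.58% of the 12733 tested genes with a window. The longer form TCACNCCAC, which contains CACNCCAC and was searched first, was found in 1 member, Hmgcs1 (3.85% against 1.38%). CCAAT was found in 21 of 26 members (80.8% against 42.5%), and the Sp1 box GGGCGG in 23 of 26 (88.5% against 64.5%). TCACGTGA, a form of the sterol E-box, and AGGTCA repeated after any 4 bases, a form of the LXR element, were in no member's window, and in 1.9% and 0% of tested genes. The motifs were chosen with the results of these genes known, and a match is a description of letters, not a binding site.

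Per 1000 bases of transcript, Hmgcs1, which joins acetyl-CoA units into HMG-CoA, had the highest mean level of the 31 genes (2942 ± 427.3 normalised counts per 1000 bases, SD over 56 libraries). The breakdown enzyme gene Cyp46a1 came next (2863 ± 373.4), and the spreads of these neighbours overlapped. Srebf2 (1254) and Acly (1079) followed, and Acly makes the cytosolic acetyl-CoA on which the pathway draws. The lowest were Nr1h3 (26.11), Soat1 (98.12), which esterifies cholesterol for storage, and Abca1 (118.6). The highest of the 12 group means was between 1.117 times (Insig2) and 1.648 times (Msmo1) the lowest.

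The same group held the lowest mean for most enzymes. Of the 18 enzymes from acetyl-CoA thiolase to cholesterol, 12 had their lowest group mean in WT fluoxetine females, and 7 their highest in WT vehicle females. In 10 of the 18 the lowest single library was WT fluoxetine female replicate 1. How many of all genes had their extremes in these groups or this library was not counted. Between these 2 groups 12.1% of all genes passed the test described below (5.66% higher and 6.48% lower under fluoxetine). Outside the enzymes, Stard4 also had its lowest group mean in WT fluoxetine females, and Stard4, Insig1 and Insig2 had their highest in WT vehicle females. Other members went the opposite way. Srebf1, Abca1, Nr1h2 and Acly had their highest group mean in WT fluoxetine females, and Scap, Abcg1 and Cyp46a1 their lowest in WT vehicle females. Srebf2, Soat1 and Nr1h3 had both extremes in other groups.

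**Figure D1:**
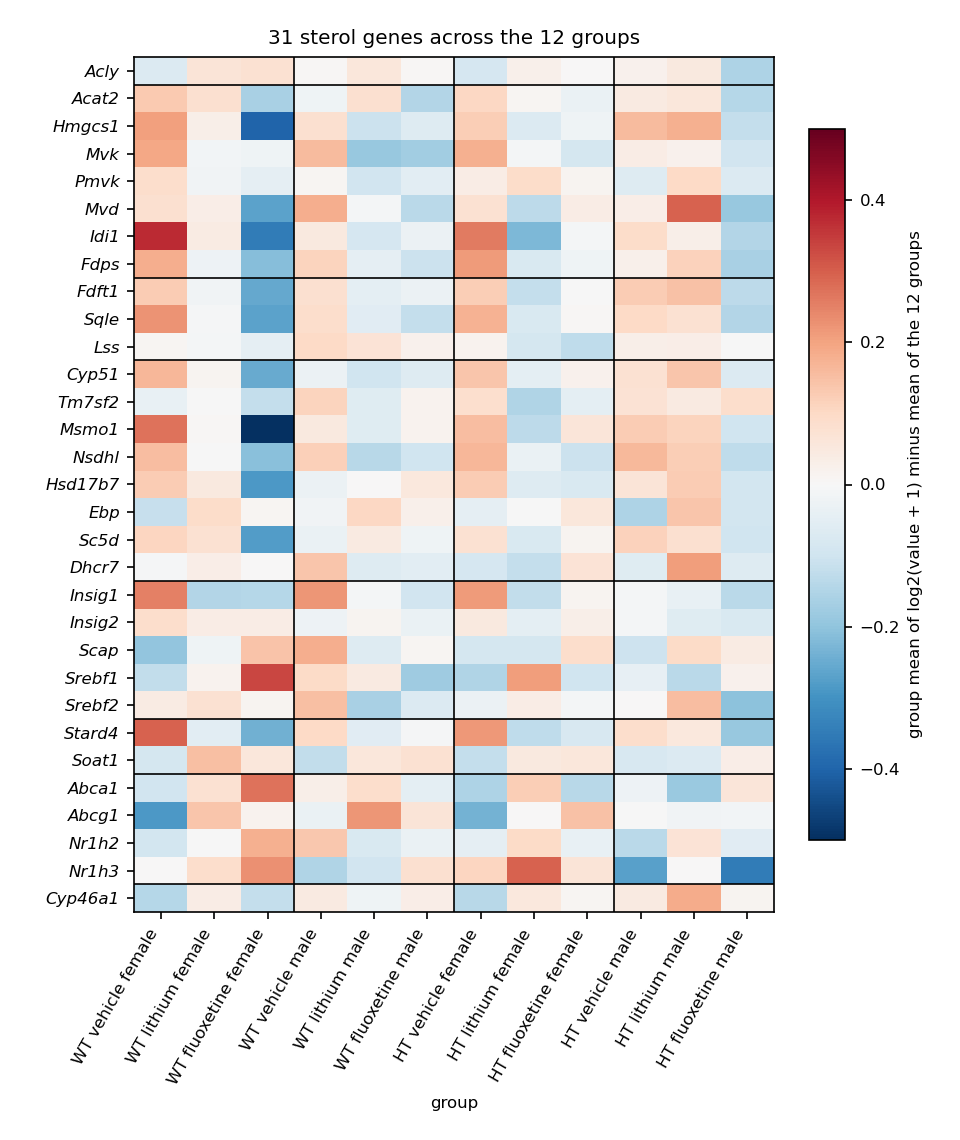
Mean of log2(normalised count + 1) of each of the 31 genes (vertical axis, by pathway step) in each of the 12 groups (horizontal axis), as a difference from the mean of the 12 groups (colour scale in log2 units). The column of WT fluoxetine females is blue for the 12 synthesis enzymes that had their lowest group mean there and for some of the other 6, and red for Srebf1, Abca1, Nr1h2 and Acly.

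Under fluoxetine the synthesis pathway was lower along most of its length when both genotypes and sexes were averaged: 12 of the 18 enzymes fell, none rose, and 17 had a change below 0. With the regulators and transporters, 14 members fell and 2 rose, 16 of 31 in all, against 7.62% of all genes tested (4.45% higher and 3.17% lower). The median log2 change of the enzymes was -0.20, against -0.004 for all genes. The test was limma's on log2(normalised count + 1), two-sided, with p adjusted by Benjamini-Hochberg over 18026 genes and called below 0.05. Each of the 4 combinations of genotype and sex was also left out in turn, an alternative chosen after the data were seen. Without the WT female groups 2 members were called, Nsdhl (-0.26, adjusted p = 0.0126) and Insig1 (-0.21, adjusted p = 0.0332), with 0.732% of all genes, 15 members at an unadjusted p below 0.05 and an enzyme median of -0.13. Without HT females 13 members were called (3.42% of all genes, enzyme median -0.21), without WT males 15 (7.33%, -0.22) and without HT males 14 (8.37%, -0.20). All 16 changes kept their sign in each of these 4 fits. Except for Hsd17b7, Sc5d and Abcg1, this had to follow. The other called members had the same direction in all 4 combinations, so leaving 1 out could not reverse them.

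In the mevalonate steps 5 of 7 genes fell. Hmgcs1 (ENSMUSG00000093930, chromosome 13, 119690379 to 119708260, plus strand, GRCm38) ran from 9122 to 12612 with a median of 11169 normalised counts in the 18 vehicle libraries. In the 20 fluoxetine libraries it ran from 5611 to 11340 with a median of 9696. The fluoxetine values lay lower as a group and overlapped with vehicle, and the change was -0.29 ± 0.05 (SE), adjusted p = 0.00053. Idi1, which isomerises the 5-carbon building block of all isoprenoids, showed the largest fall of the members, -0.33 ± 0.06, adjusted p = 0.000686. Its level ran from 1745 to 2717 with a median of 2090 under vehicle and from 1021 to 2203 with a median of 1751 under fluoxetine, again with overlap. Fdps, which makes farnesyl diphosphate, the branch point to sterols and other isoprenoids, fell by 0.26 ± 0.05, adjusted p = 0.000572. The other called genes were Acat2, the thiolase that opens the pathway, and Mvk, the mevalonate kinase, with falls of 0.19 and 0.24. Mvd, the decarboxylase (-0.23, adjusted p = 0.0525), and Pmvk, the phosphomevalonate kinase (-0.06, adjusted p = 0.544), were not called.

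In the squalene steps, Sqle, the monooxygenase that adds oxygen to squalene, ran from 1871 to 2403 with a median of 2215 under vehicle and from 1329 to 2064 with a median of 1789 under fluoxetine. Most fluoxetine libraries lay below most vehicle libraries, and the change was -0.28 ± 0.05, adjusted p = 0.000165. Fdft1, squalene synthase, fell by 0.22, and Lss, which closes the rings to lanosterol, had -0.08 (adjusted p = 0.198) and was not called. After lanosterol, 5 of 8 genes fell. Nsdhl, an X-linked gene whose product takes part in removing the 4-methyl groups, ran from 602 to 834 with a median of 716 under vehicle and from 472 to 691 with a median of 601 under fluoxetine. Its change of -0.29 ± 0.04 had the smallest adjusted p of the members, 0.000119. Msmo1 and Hsd17b7, which act in the same demethylation, fell by 0.28 and 0.17. Cyp51, the lanosterol demethylase, and Sc5d, the sterol desaturase, fell by 0.18 and 0.16. Tm7sf2 (-0.07), Ebp (0.08) and Dhcr7 (-0.01), a reductase, an isomerase and the reductase of 7-dehydrocholesterol, were not called. With the trend of values with GC content and transcript length removed, 12 lower and 2 higher calls were found, with 2.95% of all genes. Cyp51, Msmo1, Hsd17b7 and Sc5d were not among them.

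**Figure D2:**
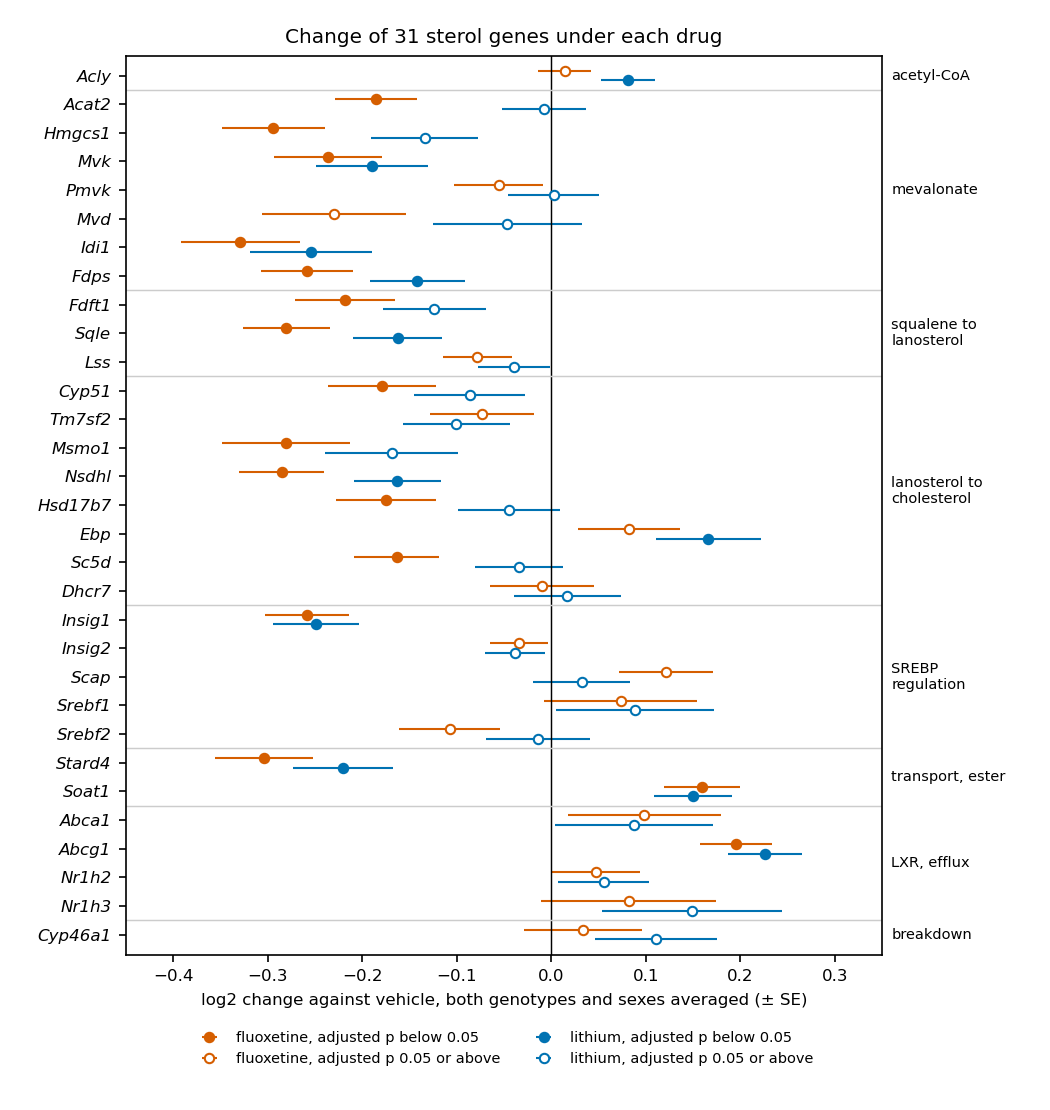
Log2 change against vehicle (horizontal axis, ± SE) of each of the 31 genes (vertical axis, by pathway step) with both genotypes and sexes averaged, for fluoxetine (orange) and lithium (blue), with filled points where the adjusted p was below 0.05. Fluoxetine points of 17 of the 18 enzymes lie below 0, and Abcg1 and Soat1 lie above 0 for both drugs.

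Among the regulators, 1 of 5 was called. Insig1, a sterol-sensing brake that is itself a target of SREBP, ran from 1687 to 2574 with a median of 2059 under vehicle and from 1441 to 2000 with a median of 1730 under fluoxetine. It fell by 0.26 ± 0.04, adjusted p = 0.000214, and its fluoxetine values overlapped the lower vehicle values. Srebf2 (-0.11 ± 0.05, adjusted p = 0.231) and Srebf1 (0.07 ± 0.08, adjusted p = 0.667) were not called, nor were Scap (0.12) and Insig2 (-0.03). Srebf2 had medians of 6568 under vehicle and 6059 under fluoxetine, and Srebf1 had medians of 798 in both.

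Sterol handling moved in both directions. Stard4, which carries cholesterol between membranes and is a SREBP target, ran from 762 to 1149 with a median of 1029 under vehicle and from 649 to 975 with a median of 789 under fluoxetine. It fell by 0.30 ± 0.05, adjusted p = 0.000201. Abcg1, an efflux pump and LXR target, ran from 958 to 1358 with a median of 1223 under vehicle and from 1207 to 1727 with a median of 1350 under fluoxetine. It rose by 0.20 ± 0.04, adjusted p = 0.000865, and the lowest fluoxetine library lay near the vehicle median. Soat1 rose by 0.16, with medians of 744 and 853. The other LXR genes were not called (Abca1 0.10, Nr1h2 0.05, Nr1h3 0.08), nor were Cyp46a1 (0.03 ± 0.06, adjusted p = 0.821) and Acly (0.01).

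Myelin markers moved in the same comparison. Over the 19 myelin markers the median change under fluoxetine was -0.30, with 3 lower and none higher. Their summed level ran from 88100 to 292576 normalised counts in vehicle libraries and from 68386 to 205176 in fluoxetine libraries, and no marker was at 0. With the mean of the myelin markers as a covariate, 13 members were called lower and 3 higher. The share of all genes called was then 13.2%, against 7.62% without it. Of 8 microglia markers 2 were lower, and no marker of astrocytes, neurons, oligodendrocyte progenitors or the olfactory bulb was called.

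Counting only the direction in each of the 4 combinations of genotype and sex, 16 members were lower under fluoxetine in all 4, among them 13 of the 18 enzymes, against 9.67% of all genes. In the other direction, Ebp and Soat1 were higher in all 4, against 8.98% of all genes.

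**Figure D3:**
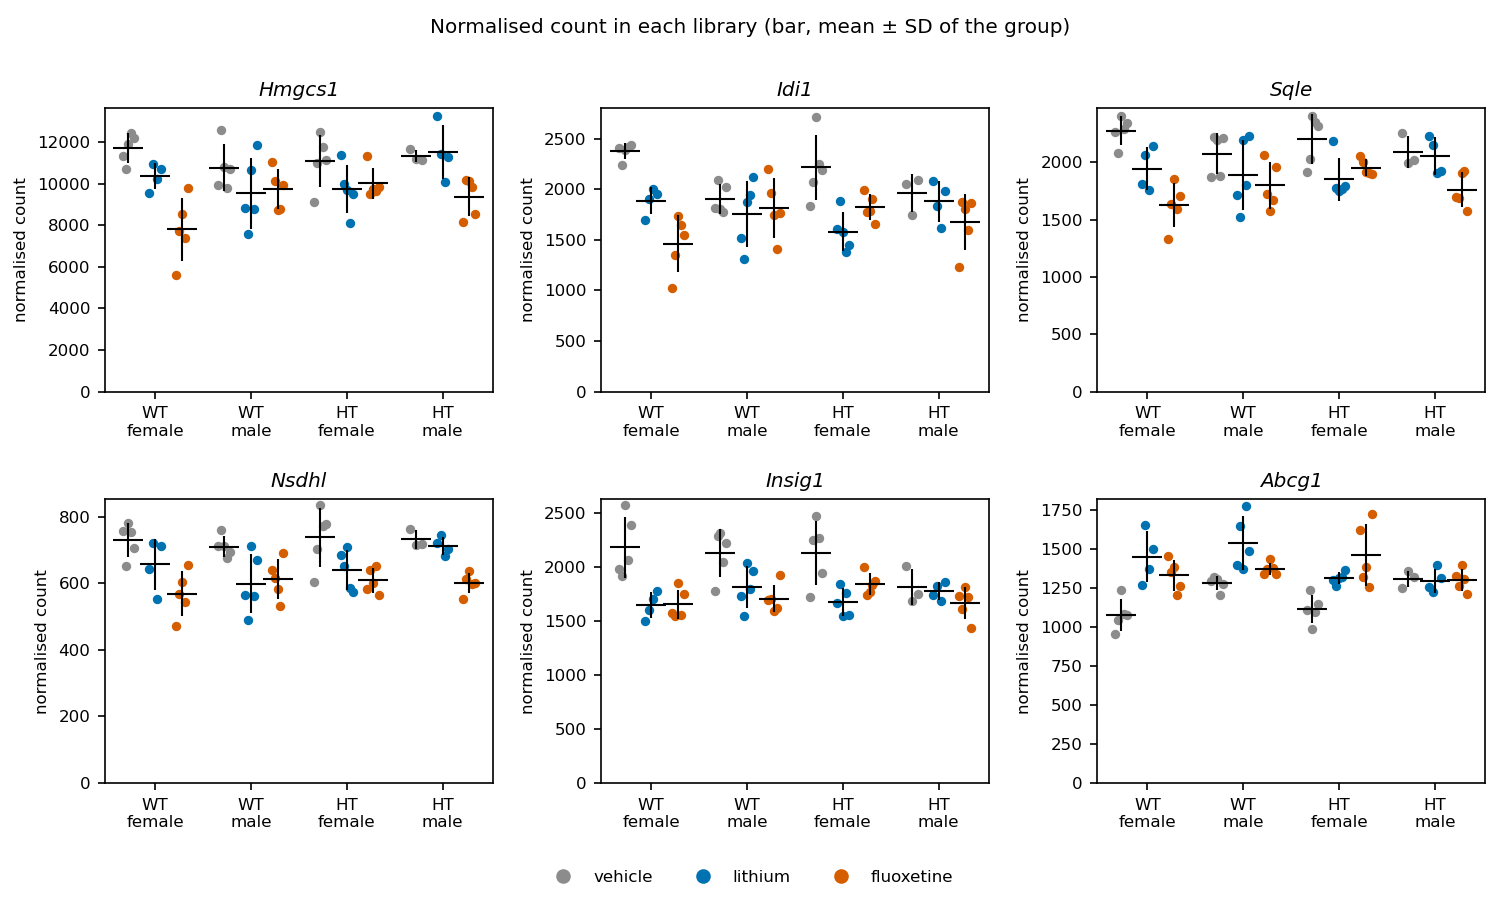
Normalised count (vertical axis, from 0) of Hmgcs1, Idi1, Sqle, Nsdhl, Insig1 and Abcg1 in each library, by genotype and sex (horizontal axis) and drug (colour), with the mean ± SD of each group. WT fluoxetine females are the lowest group for Hmgcs1, Idi1, Sqle and Nsdhl, and Abcg1 is lowest in WT vehicle females.

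Under lithium fewer enzymes passed the test than under fluoxetine, while more genes of the whole table did. With both genotypes and sexes averaged, 11 of 31 members were called, 4 higher and 7 lower, against 21.7% of all genes (11.8% higher and 9.92% lower). Of the 18 enzymes 5 fell and 1 rose, with a median change of -0.09. The fluoxetine and lithium comparisons share the 18 vehicle libraries, so their values are given side by side and not as 2 independent observations. Without the WT female groups 4 members were called (Abcg1 0.16, Insig1 -0.20, Idi1 -0.23 and Nsdhl -0.17), with 13.5% of all genes. The count was also 4 without HT females (Ebp, Insig1, Soat1 and Abcg1, 10.5% of all genes), 7 without WT males (18.1%) and 13 without HT males (21.8%).

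Abcg1 had the smallest adjusted p under lithium. It ran from 1224 to 1780 with a median of 1371 normalised counts in the 18 lithium libraries, against a vehicle median of 1223, and rose by 0.23 ± 0.04, adjusted p = 2.77e-05. No lithium library lay below the vehicle median. Insig1 ran from 1500 to 2038 with a median of 1738, and fell by 0.25 ± 0.05, adjusted p = 6.34e-05. Stard4 fell by 0.22 ± 0.05, adjusted p = 0.00174, and its levels, from 620 to 1037 with a median of 853, overlapped with vehicle. Idi1 fell by 0.25 ± 0.06, adjusted p = 0.00298, with levels from 1313 to 2120 and a median of 1855.

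The other lithium calls were of smaller size. Soat1 rose by 0.15, adjusted p = 0.00597. Nsdhl and Sqle each fell by 0.16, adjusted p = 0.00778 and 0.00982, and Mvk by 0.19, adjusted p = 0.0159. Fdps fell, and Ebp and Acly rose. Leaving out 1 library removed the call of Acly in 11 and of Fdps in 15 of 56 cases. Hmgcs1 ran from 7572 to 13265 with a median of 10174 and was not called (-0.13, adjusted p = 0.0823). Srebf1 (0.09 ± 0.08, adjusted p = 0.496), Srebf2 (-0.01 ± 0.05, adjusted p = 0.896) and Cyp46a1 (0.11 ± 0.06, adjusted p = 0.23) were not called either.

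Lower in all 4 combinations of genotype and sex under lithium were 7 members (Mvk, Idi1, Sqle, Msmo1, Nsdhl, Insig1 and Stard4), against 14.4% of all genes. Acly, Ebp, Soat1 and Nr1h3 were higher in all 4, against 15.7%. Beside these changes the 19 myelin markers had a median of -0.28 with 5 lower, and their summed level ran from 63024 to 202045. Of 12 astrocyte markers 3 were higher, with a summed level from 141643 to 195459 against 128500 to 170833 under vehicle. Of 8 oligodendrocyte progenitor markers 3 were higher, of 8 microglia markers 3 were lower, and of 6 endothelial markers 1 was higher. No marker of these lists was at 0 in any library, and the part of cell composition in the changes was not tested beyond the myelin and olfactory covariates. With the myelin covariate 10 members were called for averaged lithium (24.8% of all genes), and with the olfactory covariate 15 (29.1%).

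Compared directly, lithium and fluoxetine differed in 1 member, Acat2, with 1.84% of all genes called. Acat2 ran from 1031 to 1460 with a median of 1258 under lithium and from 1017 to 1299 with a median of 1112 under fluoxetine, a difference of 0.18 ± 0.04, adjusted p = 0.0165. At an unadjusted p below 0.05 there were 9 members. Of the 18 enzymes 17 were higher under lithium than under fluoxetine, with a median difference of 0.10, against 0.003 for all genes.

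Within WT mice, fluoxetine changed 14 members, 12 lower and 2 higher, with 5.18% of all genes called (3.19% higher and 1.99% lower). Insig1 (-0.36 ± 0.06, adjusted p = 0.00043), Sqle (-0.35 ± 0.06, adjusted p = 0.000575) and Hmgcs1 (-0.38 ± 0.07, adjusted p = 0.00183) had the smallest p. Nsdhl (-0.29), Idi1 (-0.40), Fdps (-0.31), Stard4 (-0.32) and Msmo1 (-0.40) followed, and Abcg1 and Soat1 rose. In the same contrast 10 of 19 myelin markers fell, with a median of -0.62. Only 9 members were called when WT fluoxetine female replicate 2, WT fluoxetine male replicate 2 or 3, WT vehicle female replicate 3 or WT vehicle male replicate 3 was left out. The count was 9 with the compared groups fitted alone (2.34% of all genes) and 8 after removal of the trend with GC content and transcript length (2.62%). Neither Srebf1 nor Srebf2 nor Cyp46a1 was called in WT.

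Within HT mice, limma called no member under fluoxetine and no gene at all (0% of genes), and edgeR's quasi-likelihood test called 0 members, while 15 members had an unadjusted p below 0.05. The 2 smallest p were those of Nsdhl (-0.28 ± 0.07, adjusted p = 0.135) and Stard4 (-0.29 ± 0.08, adjusted p = 0.232), and the enzymes' median was -0.16. The median change of the myelin markers was -0.04, with none called. The test of the difference itself, HT minus WT, called no member by limma or edgeR and 0% of genes, with 2 members at an unadjusted p below 0.05. Insig1 had the smallest p of that difference (0.19, adjusted p = 1.0). A difference of the fluoxetine effect between genotypes was therefore not detected.

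Lithium in WT changed 7 members, 2 higher and 5 lower, with 11.7% of all genes called (7.05% higher and 4.65% lower). Abcg1 rose by 0.34 ± 0.05, adjusted p = 2.37e-05, and Soat1 by 0.21, adjusted p = 0.00963. Insig1 fell by 0.32 ± 0.06, adjusted p = 0.000493, and Stard4, Mvk, Nsdhl and Sqle fell by 0.25, 0.28, 0.21 and 0.19. Without WT lithium female replicate 3 the count was 4. In HT, limma called none, with 9.77% of all genes called, 5 members at an unadjusted p below 0.05 and 1 member called by edgeR. Idi1 (-0.27, adjusted p = 0.0549) and Insig1 (-0.18, adjusted p = 0.0748) had the smallest p. With the myelin covariate 5 members were called, 2 higher and 3 lower, with 15.4% of all genes. With the olfactory covariate 2 were called (15.8%), as with the compared groups fitted alone (7.19%). Leaving out the 2 libraries that stood apart gave 1 (7.7%). Without HT vehicle female replicate 1, the library with the high choroid plexus markers, 3 were called, and without HT lithium female replicate 2, 2 were called. The difference between genotypes in the lithium effect called no member by limma or edgeR (0.0166% of genes, 4 members at an unadjusted p below 0.05), and the smallest p was that of Abcg1 (-0.23, adjusted p = 0.36).

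Of the 4 combinations of genotype and sex, WT females had the most members called under fluoxetine, 17, 13 lower and 4 higher, with 12.1% of all genes called (5.66% higher and 6.48% lower). Msmo1 had 2499, 2321, 2984, 2619 and 2591 normalised counts in the 5 vehicle females and 927, 1410, 2090, 1497 and 1972 in the 5 fluoxetine females. Every fluoxetine value lay below every vehicle value, and replicate 1 was the lowest. The change was -0.77 ± 0.13, a level 0.585 times that of vehicle, adjusted p = 0.000227. Idi1 had 2402, 2243, 2390, 2414 and 2436 under vehicle and 1021, 1353, 1738, 1646 and 1551 under fluoxetine, again without overlap, a change of -0.72 ± 0.12, adjusted p = 0.000225. Hmgcs1 had 11340, 10690, 11914, 12437 and 12210 under vehicle and 5611, 7727, 8526, 7383 and 9775 under fluoxetine, a change of -0.61 ± 0.11, adjusted p = 0.000273. The groups did not overlap for Hmgcs1 either.

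Sqle (-0.49), Stard4 (-0.54), Insig1 (-0.40), Sc5d (-0.38) and Nsdhl (-0.36) complete the 8 with the smallest p. Stard4 had between 1036 and 1105 normalised counts in WT vehicle females and between 649 and 839 in WT fluoxetine females, with a clear gap between the groups. The genes that rose were Abcg1 (0.31), Scap (0.34), which escorts SREBP to the Golgi, Nr1h2 (0.27) and Srebf1 (0.46). Transcript GC content ran from 41.9% (Idi1) to 48.6% (Sqle) in the 8 with the smallest p. In the genes that rose it ran from 52.7% (Abcg1) to 60.6% (Nr1h2). Over all comparisons, removal of the trend with GC content and transcript length lost the call of 38 of 87 member values. Srebf1 had 772, 842, 628, 793 and 811 under vehicle and 1560, 1114, 797, 1277 and 724 under fluoxetine. Here replicates 1, 2 and 4 lay above all vehicle values and replicates 3 and 5 within their range. The same replicates 1, 2 and 4 had high olfactory marker scores (3.00, 2.46 and 3.15, as log2 difference from the mean of all libraries) and replicates 3 and 5 low ones (-2.30 and -3.34), while the vehicle females ran from -2.55 to 2.19. With the olfactory covariate the change of Srebf1 was 0.47, adjusted p = 0.000548. WT fluoxetine female replicate 1, the lowest library for most enzymes, was the highest of the 56 for Srebf1 and Abca1. Its mitochondrially encoded genes were at -0.67 log2 units from the median library, with all 5 fluoxetine females between -0.67 and -0.08 and the vehicle females between -0.48 and 0.38, and the part of these genes in the changes was not tested. In the same comparison 8 of 19 myelin markers fell (median -0.67), with summed levels from 163896 to 202009 under vehicle and from 68386 to 170903 under fluoxetine. Astrocyte marker scores ran from -0.161 to -0.0257 under vehicle and from -0.0745 to 0.121 under fluoxetine. Neuron scores ran from -0.0648 to 0.0727 and from -0.401 to 0.141. Microglia scores ran from -0.173 to 0.165 and from -0.496 to 0.0131. All these ranges overlapped, and the part of these cells in the changes was not tested. With the olfactory marker mean as a covariate, 3 higher and 15 lower calls were found for the averaged fluoxetine effect, with 15.9% of all genes.

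In HT females under fluoxetine only Abcg1 was called (0.38, adjusted p = 0.00634, with 0.727% of all genes). It had 1109, 1239, 991, 1100 and 1147 normalised counts under vehicle and 1625, 1323, 1386, 1260 and 1727 under fluoxetine, without overlap. In WT males limma called no member (1.03% of genes, 8 members at an unadjusted p below 0.05, 1 called by edgeR), and Insig1 came closest (-0.32, adjusted p = 0.0505). In HT males limma and edgeR called none (0% of genes, 7 members at an unadjusted p below 0.05), with Nsdhl at -0.29 and Acly at -0.18, both with adjusted p = 1.0. HT males had 3 vehicle libraries, the smallest group.

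The difference between the sexes was tested directly. In WT, males minus females of the fluoxetine effect, 9 members were called, 6 above 0 and 3 below, with 7.74% of all genes called (4.58% above and 3.16% below). Msmo1 differed by 0.74 ± 0.18, adjusted p = 0.0127, with a change of -0.77 in females and -0.03 in males. For Idi1 the difference was 0.65 ± 0.17, adjusted p = 0.0178 (-0.72 in females and -0.08 in males), and for Hmgcs1 it was 0.46, adjusted p = 0.0455 (-0.61 and -0.15). Hsd17b7 (0.49), Sc5d (0.39) and Stard4 (0.43) also had differences above 0. Their changes were -0.41, -0.38 and -0.54 in females, and 0.08, 0.009 and -0.10 in males, none of these called in males. Scap (-0.51 ± 0.14, adjusted p = 0.0184), Nr1h2 (-0.44, adjusted p = 0.0278) and Srebf1 (-0.73, adjusted p = 0.0344) went the other way, with changes above 0 in females and below 0 in males.

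These sex differences depended on the processing and on single libraries. Transcript GC content ran from 41.9% (Idi1) to 44.7% (Msmo1) in the genes with differences above 0. In those with differences below 0 it ran from 58.4% (Srebf1) to 60.6% (Nr1h2). After removal of the trend with GC content and transcript length none was called, with the compared groups fitted alone 2 were, and edgeR called 7, without Hmgcs1 and Stard4. The count was 1 without WT fluoxetine male replicate 1, 3 without WT fluoxetine female replicate 2 or WT vehicle male replicate 4, and 4 without WT fluoxetine female replicate 1 or 4 or WT vehicle female replicate 3. It was 5 without WT vehicle female replicate 1 or 4 or WT vehicle male replicate 1 or 3. In HT the same difference called no member by limma or edgeR (0.0277% of genes, 2 members at an unadjusted p below 0.05), and the smallest p was that of Abcg1 (-0.39, adjusted p = 0.324).

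**Figure D4:**
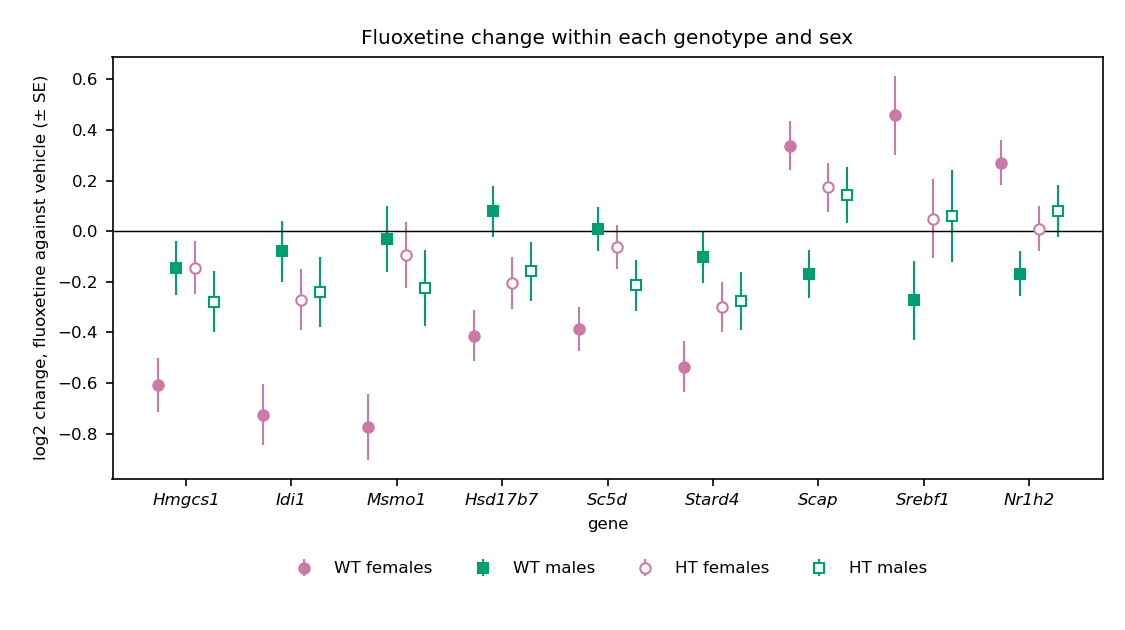
Log2 change under fluoxetine against vehicle (vertical axis, ± SE) of the 9 genes (horizontal axis) called in the male minus female difference in WT, within each genotype and sex. The filled circles of WT females reach -0.77 for Msmo1 and 0.46 for Srebf1, while the filled squares of WT males lie at -0.03 and -0.27.

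The lithium effect by sex was followed in the same way. In WT females Abcg1 rose (0.42) and Insig1 (-0.40) and Stard4 (-0.35) fell, with 6.62% of all genes called (3.85% higher and 2.77% lower). Abcg1 had 1274, 1654, 1375 and 1505 normalised counts in the 4 WT lithium females against 958 to 1239 in WT vehicle females, without overlap. In HT females Idi1 (-0.48), Insig1 (-0.34), Stard4 (-0.34) and Fdps (-0.29) fell and Abcg1 rose (0.24), with 10.5% called (5.56% higher and 4.94% lower). In the same comparison 3 of 12 astrocyte markers were higher (median 0.24), with summed levels from 141643 to 195459 against 128500 to 152990 under vehicle. Of 8 oligodendrocyte progenitor markers 2 were higher (median 0.25), with summed levels from 8942 to 11909 against 6957 to 9539. Of 8 microglia and 6 endothelial markers 2 and 1 were higher, of 7 choroid plexus markers 1 was lower, none of 19 myelin markers was called (median -0.18), and the part of these cells in the changes was not tested. Only Abcg1 was called in WT males (0.26, adjusted p = 0.047, 2.3% of genes). In HT males limma and edgeR called none (0.0166% of genes, 2 members at an unadjusted p below 0.05). No male minus female difference of the lithium effect called a member by limma or edgeR, in WT (0% of genes, 3 members at an unadjusted p below 0.05), in HT (0.172%, 5 members) or averaged (0.594%, 5 members). The averaged difference of the fluoxetine effect called none either (0.322%, 8 members).

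Between HT and WT mice, limma and edgeR called no member when the sexes were averaged. Under vehicle 0% of genes were called and 1 member had an unadjusted p below 0.05, with Insig1 at -0.13 (adjusted p = 0.781). Under lithium 0% of genes were called, with 2 members at an unadjusted p below 0.05 and Abcg1 at -0.19 (adjusted p = 0.268). Under fluoxetine 0% were called, with 4 members, and Acly was at -0.12 (adjusted p = 0.276). Among fluoxetine females alone, Msmo1 (0.56, adjusted p = 0.0221) and Hmgcs1 (0.38, adjusted p = 0.0403) were higher in HT than in WT, with 2.56% of all genes called, and edgeR called 1 member. The male minus female differences of the genotype effect called no member by limma or edgeR (0%, 0% and 0.155% of genes under vehicle, lithium and fluoxetine, with 2, 6 and 10 members at an unadjusted p below 0.05). Between males and females, averaged over the 6 combinations of genotype and drug, limma and edgeR called no member either. Of all genes 0.283% were called, 4 members had an unadjusted p below 0.05, and Nr1h3 had the smallest p (-0.26, adjusted p = 0.116).

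Around these genes, 43 others of the sterol and fatty acid network were counted in 6 lists. Under lithium with the groups averaged 8 were higher and 5 lower, beside the 21.7% of all genes called. The fatty acid targets of SREBP rose more often than they fell (4 higher and 1 lower of 10): Fasn, fatty acid synthase, had a median of 7772 normalised counts under vehicle and 9750 under lithium and rose by 0.39 ± 0.05, adjusted p = 6.63e-07. Scd1, a desaturase, rose by 0.28, adjusted p = 0.000811. Among lipoprotein receptors Lrp1, with medians of 11254 and 14416, rose by 0.43 ± 0.05, adjusted p = 7.24e-09 (2 higher of 5). Gramd1b, a carrier of sterol from the plasma membrane, rose by 0.21, adjusted p = 4.09e-07 (2 higher of 9 transport genes).

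Isoprenoid branch genes fell under lithium in 2 of 8 cases, Fnta (-0.16, adjusted p = 8.33e-05) and Ggps1 (-0.18), which serve protein prenylation. Of the genes of SREBP cleavage and degradation 2 of 7 fell (Rnf139 and Erlin1), and of 4 oxysterol synthesis genes limma called none, with none at an unadjusted p below 0.05. Under fluoxetine 1 of the 43 was higher and 4 were lower, against 7.62% of all genes. Lrp1 rose by 0.31, adjusted p = 7.85e-05, and Fnta, Acsl3, Ubxn8 and Npc2 fell by 0.10 to 0.13. Of the 10 fatty acid targets 1 fell and none rose under fluoxetine. Lithium exceeded fluoxetine in 4 of those 10, Acaca (0.17), Scd1 (0.30), Fasn (0.24) and Acss2 (0.16), and in Gramd1b (0.14). In that comparison 1.84% of all genes were called.

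Between libraries of the same group, members followed astrocyte and myelin markers to different degrees. Each member's deviation from its group mean was compared with that of the mean of 12 astrocyte and of 19 myelin markers over 56 libraries, 62 relations in all, with 100000 permutations within groups, two-sided. The adjusted permutation p printed beside r and rho is that of r, and a relation passed where it was below 0.05. Abca1, the efflux pump, followed the astrocyte markers most closely (Pearson's r = 0.647, Spearman's rho = 0.715, adjusted permutation p = 0.00062, r = 0.634 without the 2 farthest libraries). Srebf1 (r = 0.574, rho = 0.555, adjusted permutation p = 0.00186, then 0.596), Soat1 (r = 0.491, rho = 0.456, adjusted permutation p = 0.00478, then 0.454) and Nr1h3 (r = 0.438, rho = 0.477, adjusted permutation p = 0.00958, then 0.413) went the same way.

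Acat2 went the other way (r = -0.63, rho = -0.599, adjusted permutation p = 0.00062, then -0.609), as did the neuronal enzyme gene Cyp46a1 (r = -0.586, rho = -0.645, adjusted permutation p = 0.00062, then -0.569) and Fdft1 (r = -0.553, rho = -0.599, adjusted permutation p = 0.00186, then -0.527). In all, 4 members passed in the positive and 10 in the negative direction with astrocyte markers, and Srebf2, Sqle, Hmgcs1, Stard4, Fdps, Hsd17b7 and Mvd made up the rest of the negative ones. With myelin markers 2 members passed in the positive direction, Nr1h2 (r = 0.459, rho = 0.441, adjusted permutation p = 0.00527, then 0.494) and Ebp (r = 0.452, rho = 0.427, adjusted permutation p = 0.0194, then 0.48), and Stard4 in the negative (r = -0.389, rho = -0.325, adjusted permutation p = 0.0283, then -0.349). Of these 17 relations 16 passed again by r without the 2 farthest libraries. By rho, Stard4 did not pass with myelin markers (adjusted permutation p = 0.107). Nor did Fdps, Hsd17b7 and Stard4 with astrocyte markers (adjusted permutation p = 0.071 for each). Scap with myelin markers passed by rho only (rho = 0.396, adjusted permutation p = 0.049).

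**Figure D5:**
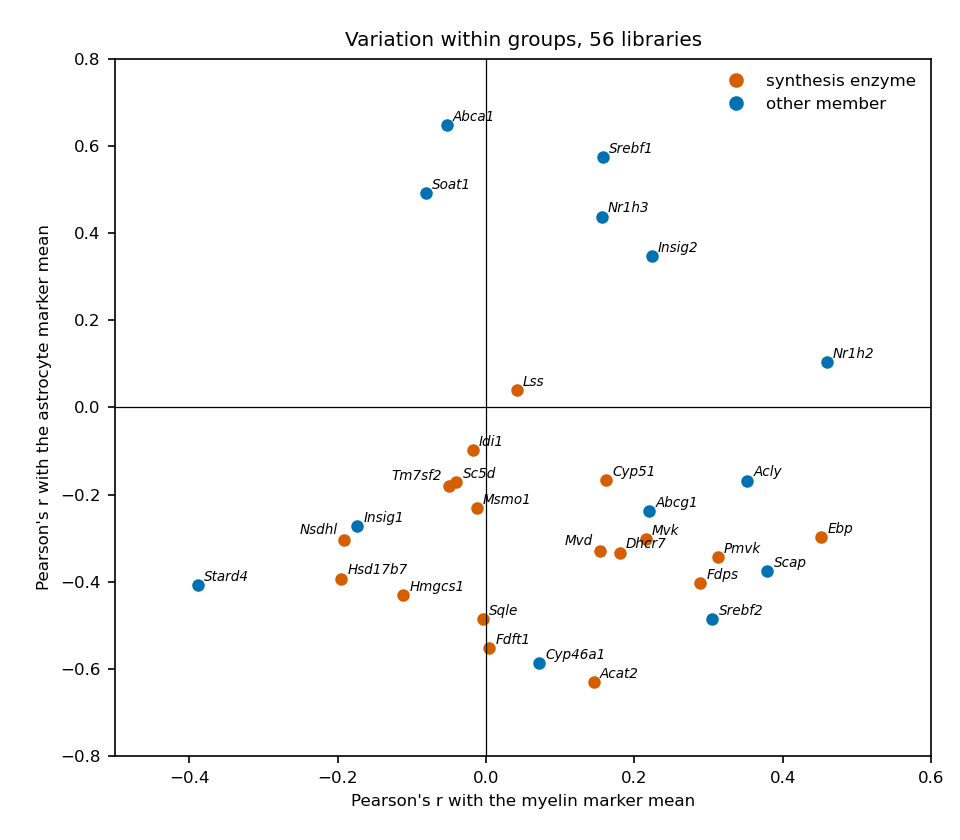
Pearson's r of each of the 31 genes with the mean of the myelin markers (horizontal axis) and of the astrocyte markers (vertical axis), from deviations from group means over 56 libraries, with synthesis enzymes in orange and other members in blue. Abca1 (0.647) and Srebf1 (0.574) lie at the top of the astrocyte axis, and Acat2 (-0.63) and Cyp46a1 (-0.586) at the bottom.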

How the data were processed

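Poly(A) RNA of prefrontal cortex was sequenced from TruSeq Stranded mRNA libraries, per the labels' protocols. The table deposited by the authors holds a signal, that is, counts of reads per gene scaled by a library's size factor. Salmon 0.11.2, R 3.6.0, DESeq2 1.19.11 and GRCm38 are named without role, per the submitters' processing notes. Such scaling hides a change of total RNA per cell. Of 59 columns, 3 match no sample of the labels and were not used, and 1 of 57 samples, a WT lithium female, was not analysed here. All values (100% within 1e-06) were whole multiples of the smallest value in their column, so whole reads were recovered. Symbols came from an identifier table (18077 of 18088 genes matched), and positions, GC content and length from GENCODE on GRCm38.

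The 18026 genes that reached a value of 10 in 3 or more libraries were fitted together by limma-trend (limma 3.58.1 under R 4.3.3) as log2(value + 1) over 12 groups, with 44 residual degrees of freedom. Fold changes of low genes are understated on that scale. Group means were contrasted in 36 comparisons with two-sided tests. A gene was called where its p, adjusted by Benjamini-Hochberg over all genes, was below 0.05. On simulated counts of 18026 genes for the averaged fluoxetine comparison, 67% of 100 genes changed by 0.25 and 95% of 100 changed by 0.5 (log2) were recovered, with 12 false among 174 calls. Correlations used scipy 1.17.1 under Python 3.11.15.

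The alternatives were edgeR 4.0.16 (quasi-likelihood, TMM) on the recovered reads, TMM factors, the replicate number as a block, no filter, the compared groups only, a pseudocount of 5, myelin or olfactory marker means as a covariate, removal of the GC and length trend within each library (splines with 4 degrees of freedom), leaving out the 2 libraries that stood apart, and leaving out each library. Leaving out each combination of genotype and sex in turn was added after the data were seen.

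The members, the marker and pathway lists and the tests were chosen with earlier results of these data known. Named with statistics were, per comparison, up to 8 called members of smallest p, or the 2 of smallest p where none was called, plus Insig1, Srebf1, Srebf2 and Cyp46a1 under each drug, and up to 3 called genes per pathway list. Other members with values, the genes followed library by library and the promoters were chosen after their values were seen.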

Additional observations from a re-analysis of the deposited data

Results flagged for a closer look

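Single libraries stood apart from the rest of their group in 10 of the 176 groups of 4 or 5 libraries examined over 16 genes, where chance gives about 1 in 20 (8.8 groups). They were judged by the gap to the nearest other library against the range of the group. HT vehicle female replicate 1, the library with high choroid plexus markers, was low for Acat2 (1098 normalised counts, the others 1364 to 1388) and high for Soat1 (876, the others 686 to 740). Srebf1 was high in 2 groups, with 1412 in HT lithium female replicate 4 (the others 802 to 962) and 1179 in WT lithium female replicate 1 (the others 748 to 760). In HT lithium males, Soat1 was high in replicate 1 (857, the others 746 to 758) and Srebf2 in replicate 2 (7623, the others 6860 to 6905). Sqle was high in HT lithium female replicate 1 (2185, the others 1745 to 1796), and Hmgcs1 in HT fluoxetine female replicate 1 (11340, the others 9523 to 9823). Scap was high in WT vehicle male replicate 3 (3289, the others 2546 to 2761). Idi1 was low in WT vehicle female replicate 2 (2243, the others 2390 to 2436).

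The fluoxetine effect in WT differed between males and females, by a test of the difference itself, in 9 genes. As males minus females on the log2 scale the differences were 0.74 for Msmo1, 0.65 for Idi1, 0.49 for Hsd17b7, 0.46 for Hmgcs1, 0.43 for Stard4 and 0.39 for Sc5d. They were -0.51 for Scap, -0.44 for Nr1h2 and -0.73 for Srebf1. Scap illustrates that vehicle levels take part in the difference: its mean was 2155 normalised counts in WT vehicle females and 2802 in WT vehicle males, and 2727 and 2502 under fluoxetine. None of the 9 was called once the trend with GC content and length was removed, and only 0.00555% of all genes were.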

How the results depend on the processing

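Counts of called members within 1.5 times of those reported were found under every alternative other than the following. For lithium in WT (7) the count was 11 with the olfactory covariate (18.2% of all genes). For lithium in HT (0) it was 1 with edgeR (10%), 2 with the compared groups only (7.19%) and 5 with the myelin covariate (15.4%). It was 2 with the olfactory covariate (15.8%) and 1 without the 2 libraries apart (7.7%). For fluoxetine in WT (14) it was 9 with the compared groups only (2.34%) and 8 with GC and length correction (2.62%). Lithium against fluoxetine (1 reported) gave 2 with the olfactory covariate (4.65%). The 9 sex differences counted together (9 calls) gave 2 with the compared groups only and 0 with GC and length correction. Averaged fluoxetine (16) gave 2 without the WT female groups. Averaged lithium (11) gave 4 without the WT female groups, 4 without the HT female groups and 7 without the WT male groups. Of the 43 other pathway genes (5 reported), fluoxetine called 8 with the myelin covariate (13.2% of all genes) and 11 with the olfactory covariate (15.9%). It called 3 with GC and length correction (2.95%). The cause of these shifts was not tested.

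Leaving out 1 library gave 4 to 10 members for lithium in WT, 0 to 3 for lithium in HT, 9 to 15 for fluoxetine in WT, 9 to 14 for averaged lithium, 14 to 17 for averaged fluoxetine, 1 to 1 for lithium against fluoxetine, 1 to 15 for the sex differences together (1 to 9 for fluoxetine in WT alone), and 0 to 0 for the comparisons with none. For the other pathway genes it gave 9 to 14 under lithium and 2 to 7 under fluoxetine, with 2 without HT vehicle male replicate 1 and 3 without HT fluoxetine female replicate 5, HT fluoxetine male replicate 3 or 4, HT vehicle female replicate 3, HT vehicle male replicate 3, WT fluoxetine male replicate 4 or WT vehicle female replicate 3. Lithium in HT gave 1 without HT fluoxetine male 1, HT lithium male 1, HT vehicle male 2, WT fluoxetine female 1 or 3, WT fluoxetine male 1 or 4, or WT lithium male 2 or 5.

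Of 87 called values of single members none changed sign under any alternative. Calls were lost for 38 of 87 with GC and length correction, 38 with the compared groups only, 6 with the myelin covariate, 5 with edgeR and 4 with the replicate block. Signs changed only among values that were not called. Srebf1 was -0.00518 for fluoxetine in HT with GC and length correction and -0.0548 for averaged fluoxetine without the WT female groups, and for averaged lithium -0.00221 without the HT female groups. For lithium in WT it ran from -0.0373 to 0.0978 without single libraries. Srebf2 was -0.0258 for lithium in HT with GC and length correction, and for averaged lithium 0.0184 with the myelin covariate, 0.0861 without the WT male groups and from -0.0327 to 0.00418 without single libraries. Cyp46a1 was -0.069 for fluoxetine in WT and -0.00388 for averaged fluoxetine with the olfactory covariate, -0.00491 for averaged fluoxetine without the HT female groups, and ran from -0.0419 to 0.0691 for fluoxetine in WT without single libraries.

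Same-numbered replicates did not pair: over 289 pairs of libraries with the same number the median correlation of their deviations was -0.00272, and the lowest -0.441, against -2.92e-05 over 1146 other pairs. With the replicate block the counts were 6 for lithium in WT, 13 for fluoxetine in WT, 11 for averaged lithium, 17 for averaged fluoxetine and 8 for the sex differences. Between 3 and 5 libraries a group limit what could be detected. The recovery of 67% for changes of 0.25 was simulated only for the averaged fluoxetine comparison. Recovery within a genotype or sex, and for differences between genotypes or sexes, was not simulated.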
